A study of Mus musculus with 6 samples.

Results

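The interferon-stimulated genes described here are 37 genes that interferon switches on, taken as a list of symbols by name, and all 37 were among the 20097 genes in the deposited tables. RNA was measured in mouse c-Kit+ bone marrow cells, a population that carries the stem cell factor receptor and in which blood-forming stem cells and their early progeny are concentrated. There were 3 libraries labelled WT and 3 labelled Runx1 KO, that is, with a knockout of a transcription factor needed for blood formation. The sources used here give no strain, age, sex, allele or Cre driver. Nothing says whether libraries numbered 1 to 3 came from separate animals, so p-values measure the spread between these libraries, which may be technical.

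Interferons are secreted proteins that bind receptors on the cell surface. Kinases of the JAK family then phosphorylate STAT proteins. A complex called ISGF3, which holds STAT2 and IRF9, binds the interferon-stimulated response element (ISRE) in the promoters of target genes, while STAT dimers bind the gamma-activated site (GAS). The target genes encode more of the signalling factors, sensors of foreign nucleic acid, enzymes of the ubiquitin-like modifier ISG15 and proteins that block viral replication. In bone marrow, type I interferon is known to bring resting blood stem cells into cycle.

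Values are normalised reads, that is, the reads counted for a gene after division by the library's size factor. The 6 libraries held between 23297526 and 26793380 reads assigned to genes, and 3 reads, the floor used here, came to between 2.88 and 3.14 normalised reads. Runx1 itself, the check of the labels, had 3031, 2799 and 3497 normalised reads in WT libraries 1 to 3 and 6648, 6720 and 5830 in the libraries labelled Runx1 KO. The targeted gene was thus higher, not lower, under the knockout label, with a log2 change of 1.04 (SE 0.10, limma adjusted p = 0.00163). A gene total does not show which exons the reads came from. The groups are therefore named by label only, and directions are those of the libraries labelled Runx1 KO relative to the libraries labelled WT. Of 9 stem and progenitor markers, Kit and 5 others passed upwards in limma (adjusted p under 0.05), beside 10.6% of all genes tested. The number was 4 to 7 when 1 library was left out. The summed list ran from 29681 to 34182 normalised reads in WT and from 44874 to 48856 under the knockout label. In bulk RNA, fewer cells of a type and less RNA per cell cannot be told apart, for the members below as for these markers.

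Promoter sequences are shown for members whose window holds the element through which ISGF3 acts, together with a GAS-containing promoter, because members with the same element are compared below. Sequences come from RefSeq (GRCm38.p6) and are the 160 bases just before the RefSeq start of the gene, 5′ to 3′ on the gene's strand. Capitals mark matches, on either strand, to the ISRE core, written as GAAA, then any 2 bases, then GAAA, or in Irf1 to the GAS letters TTCNNNGAA (N is any base). Isg15 and Ifit1 were chosen by their large changes, and Ifit3, Rsad2, Oas3 and Irf1 were added after their values were seen. The stretches are chr4:156200819-156200978 (minus strand) for Isg15, chr19:34640729-34640888 (plus) for Ifit1, chr19:34583369-34583528 (plus) for Ifit3, chr12:26456453-26456612 (minus) for Rsad2, chr5:120777660-120777819 (minus) for Oas3 and chr11:53769854-53770013 (plus) for Irf1.
Isg15: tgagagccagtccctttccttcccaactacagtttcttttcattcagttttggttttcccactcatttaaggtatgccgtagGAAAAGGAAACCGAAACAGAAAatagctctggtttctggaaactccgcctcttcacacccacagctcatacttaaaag
Ifit1: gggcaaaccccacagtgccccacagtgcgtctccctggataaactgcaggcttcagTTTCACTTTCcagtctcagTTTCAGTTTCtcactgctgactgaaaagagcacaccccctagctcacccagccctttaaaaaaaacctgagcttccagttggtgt
Ifit3: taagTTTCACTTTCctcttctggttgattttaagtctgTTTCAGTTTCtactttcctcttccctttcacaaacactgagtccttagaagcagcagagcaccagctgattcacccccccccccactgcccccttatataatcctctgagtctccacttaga
Rsad2: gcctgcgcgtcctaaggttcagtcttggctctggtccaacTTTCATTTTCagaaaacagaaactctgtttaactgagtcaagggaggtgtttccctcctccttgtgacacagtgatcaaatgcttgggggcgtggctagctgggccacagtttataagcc
Oas3: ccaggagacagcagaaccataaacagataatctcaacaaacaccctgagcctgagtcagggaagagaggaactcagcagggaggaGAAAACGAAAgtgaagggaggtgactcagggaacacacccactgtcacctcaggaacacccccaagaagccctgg
Irf1: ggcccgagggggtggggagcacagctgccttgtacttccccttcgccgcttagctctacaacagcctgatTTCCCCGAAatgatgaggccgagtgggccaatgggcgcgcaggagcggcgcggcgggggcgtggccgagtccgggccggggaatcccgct
In Isg15, 3 overlapping matches began between 78 and 66 bases before the start. Ifit1 and Ifit3 each held 2 separate matches, on the opposite strand to Isg15, and Rsad2 and Oas3 held 1 each.

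Most of the 37 genes were higher in the libraries labelled Runx1 KO. All 37 passed the filter on low values. Of them, 27 rose, 1 fell (Ly6e, a membrane-anchored surface protein) and 9 did not pass an adjusted p of 0.05 in limma. Over all 15410 genes tested, 10.6% passed upwards and 11.3% downwards, 21.9% in either direction. The list was chosen with earlier results of these data known, so the contrasts with all genes are descriptions and not tests. The median log2 change of the 37 genes was 0.68, beside -0.0042 for all genes tested, and 33 of the 37 changes were positive, beside 49.4% of all genes. The 3 libraries of each label did not overlap for 29 members that lay higher (21.4% of all genes) and for 1 that lay lower (21.9% of all genes), and they overlapped for 7. A log2 change of at least 1 was reached by 12 of the members that rose, beside 2.77% of all genes tested. When each library was left out in turn, 17 of the 28 calls held in all 6 fits and 11 were lost in at least 1, with 17 of the 28 left without library 2 labelled Runx1 KO.

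**Figure D1:**
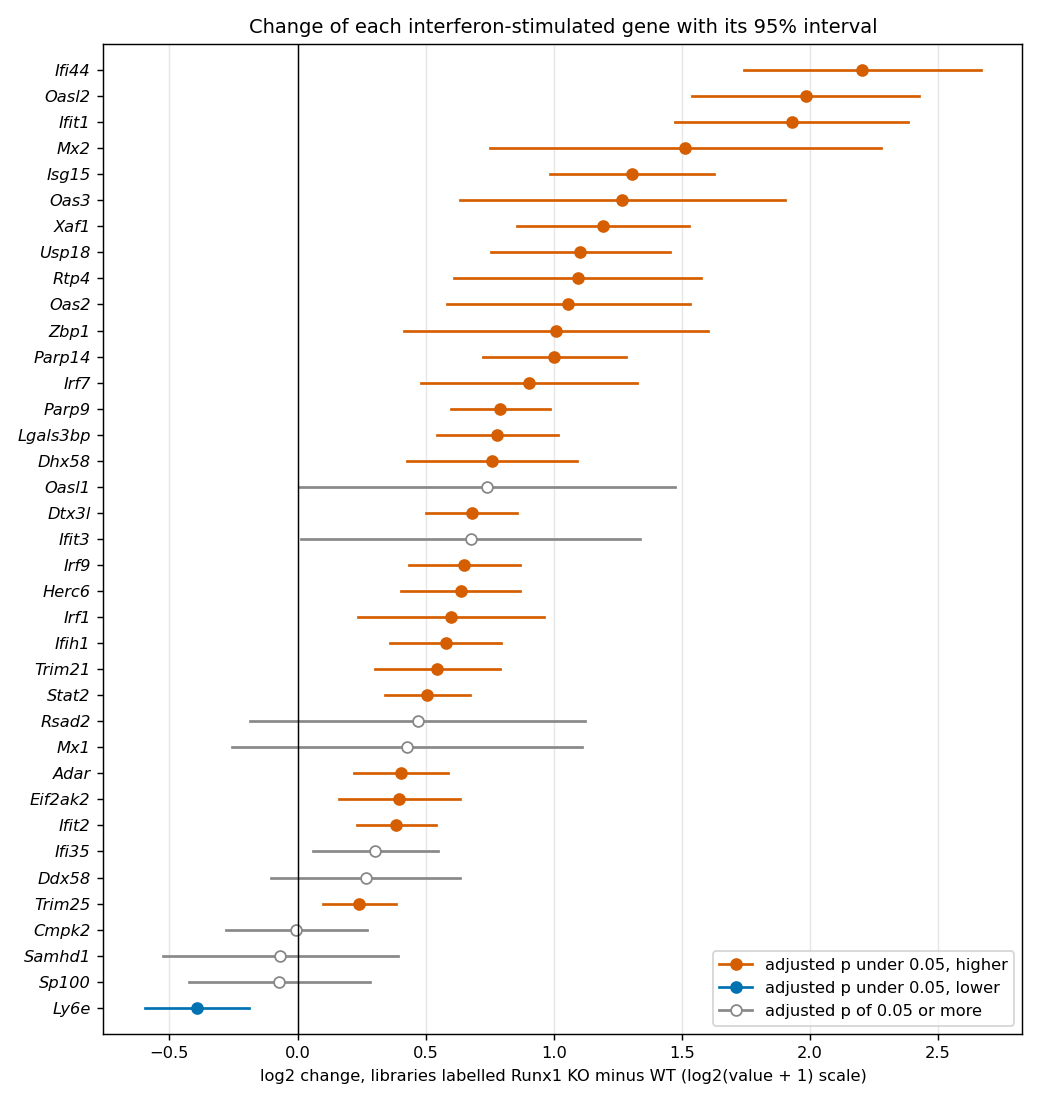
Log2 change (libraries labelled Runx1 KO minus WT, on the log2(value + 1) scale) of the 37 interferon-stimulated genes, ordered by the change. Bars show the 95% confidence interval from limma, and colour shows the call. Ifi44, Oasl2 and Ifit1 lie farthest to the right, at 2.20, 1.98 and 1.93, and Ly6e is the member called lower, at -0.39.

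All 4 STAT and IRF factors rose, by a median of 0.62 on the log2 scale. Stat2, which activates transcription as part of ISGF3, had 1281, 1231 and 1288 normalised reads in WT libraries 1 to 3 and 1685, 1786 and 1938 in the libraries labelled Runx1 KO. Irf9, the DNA-binding part of ISGF3, had 1633, 1375 and 1304 in WT and 2218, 2207 and 2319 under the knockout label. Every knockout-labelled library lay above every WT library for both genes, with log2 changes of 0.51 (SE 0.07, limma adjusted p = 0.00486) for Stat2 and 0.65 (SE 0.09, limma adjusted p = 0.0049) for Irf9. Both calls held whichever library was left out.

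Irf7, a factor that amplifies type I interferon production, had 1026, 702.3 and 694.5 normalised reads in WT and 1683, 1565 and 1246 under the knockout label. Its log2 change was 0.90 (SE 0.18, limma adjusted p = 0.0148), and WT library 1 was the highest of its group. Irf1, a factor induced through GAS elements, had 2650, 2496 and 2145 in WT and 4119, 4137 and 2885 under the knockout label. Library 3 labelled Runx1 KO stood well below the other two but above all WT libraries. The log2 change of Irf1 was 0.60 (SE 0.15, limma adjusted p = 0.0342), a call lost when any of 4 libraries was left out (highest adjusted p = 0.119). The call for Irf7 was lost without WT library 2 or library 2 labelled Runx1 KO.

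Of the 8 sensors of foreign nucleic acid and their partners, 7 rose and 1 did not pass the test, with a median log2 change of 0.48. The RIG-I-like helicases recognise viral RNA in the cytosol and signal through the adaptor MAVS. Among them Ifih1, which encodes MDA5, had 1078, 1242 and 1006 normalised reads in WT and 1581, 1737 and 1633 under the knockout label, a log2 change of 0.58 (SE 0.09, limma adjusted p = 0.00732). Dhx58, which encodes LGP2, a helicase without signalling domains that modulates its relatives, had 601.5, 443 and 508.4 in WT and 999, 837.4 and 784.7 under the knockout label, a log2 change of 0.76 (SE 0.14, limma adjusted p = 0.0119). Neither gene showed overlap between the labels. Ddx58, which encodes RIG-I, was the exception: it had 1570, 1012 and 1126 in WT and 1508, 1495 and 1381 under the knockout label. WT library 1 was the highest of all 6 for Ddx58, and the log2 change of 0.27 (95% interval -0.10 to 0.63, limma adjusted p = 0.257) passed only without that library, at 0.0198.

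Zbp1, a sensor of left-handed (Z-form) nucleic acid that can start necroptosis, had 507.5, 380.4 and 370.3 normalised reads in WT and 1046, 993 and 561.9 under the knockout label. Its log2 change of 1.01 (SE 0.25, limma adjusted p = 0.031) was the largest of the sensors. Library 3 labelled Runx1 KO was near WT library 1, and the call was lost in 4 of the 6 fits without a library. Trim21, a cytosolic antibody receptor and ubiquitin ligase, was steadier in WT, at 545.1, 553 and 568.8, against 730.2, 931.6 and 785.7 under the knockout label. The log2 change of Trim21 was 0.55 (SE 0.10, limma adjusted p = 0.0128).

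The remaining sensors changed less. Eif2ak2 encodes PKR, a kinase that halts translation on binding RNA duplexes, and had 1857, 2013 and 1589 normalised reads in WT and 2205, 2444 and 2520 under the knockout label. Adar, which edits adenosine to inosine in RNA duplexes and keeps cellular RNA from being sensed, had 2635, 2346 and 2247 in WT and 3000, 3325 and 3231 under the knockout label. Trim25, a ubiquitin ligase linked to RIG-I signalling, had 3196, 2947 and 2956 in WT and 3459, 3566 and 3724 under the knockout label. None of the 3 genes overlapped between labels, and the log2 changes were 0.40 for Eif2ak2 (SE 0.10, limma adjusted p = 0.0323), 0.40 for Adar (SE 0.08, limma adjusted p = 0.0134) and 0.24 for Trim25 (SE 0.06, limma adjusted p = 0.0314). Each of these 3 calls was lost when certain single libraries were left out, with adjusted p up to 0.112, 0.0629 and 0.114.

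All 3 genes of the ISG15 pathway rose, with a median log2 change of 1.10. Isg15, the ubiquitin-like modifier itself, had 141.5, 127.1 and 117 normalised reads in WT and 319.1, 352.8 and 286.4 under the knockout label. The group means were 129 ± 12.3 and 319 ± 33.2 (SD, n = 3 each), a ratio of 2.48 and a log2 change of 1.31 (SE 0.14, limma adjusted p = 0.00234). Usp18, which removes ISG15 from proteins and also restrains the type I receptor, had 144.4, 116 and 116.1 in WT and 285.6, 286.4 and 238.7 under the knockout label. The lowest knockout-labelled library for Usp18 was well above the highest WT library, and its log2 change was 1.10 (SE 0.15, limma adjusted p = 0.00429). Herc6, the ISG15 ligase in mice, had 330.4, 280.5 and 308.9 in WT and 483.3, 486.6 and 459.5 under the knockout label, a log2 change of 0.64 (SE 0.10, limma adjusted p = 0.00677). The other enzymes of the cascade, which are outside the list, moved the same way: Uba7, the activating enzyme, by 0.96 (SE 0.07, limma adjusted p = 0.000928) and Ube2l6, the conjugating enzyme, by 0.52 (SE 0.14, limma adjusted p = 0.0363), although the call for Ube2l6 was lost in 5 of the 6 fits without a library.

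**Figure D2:**
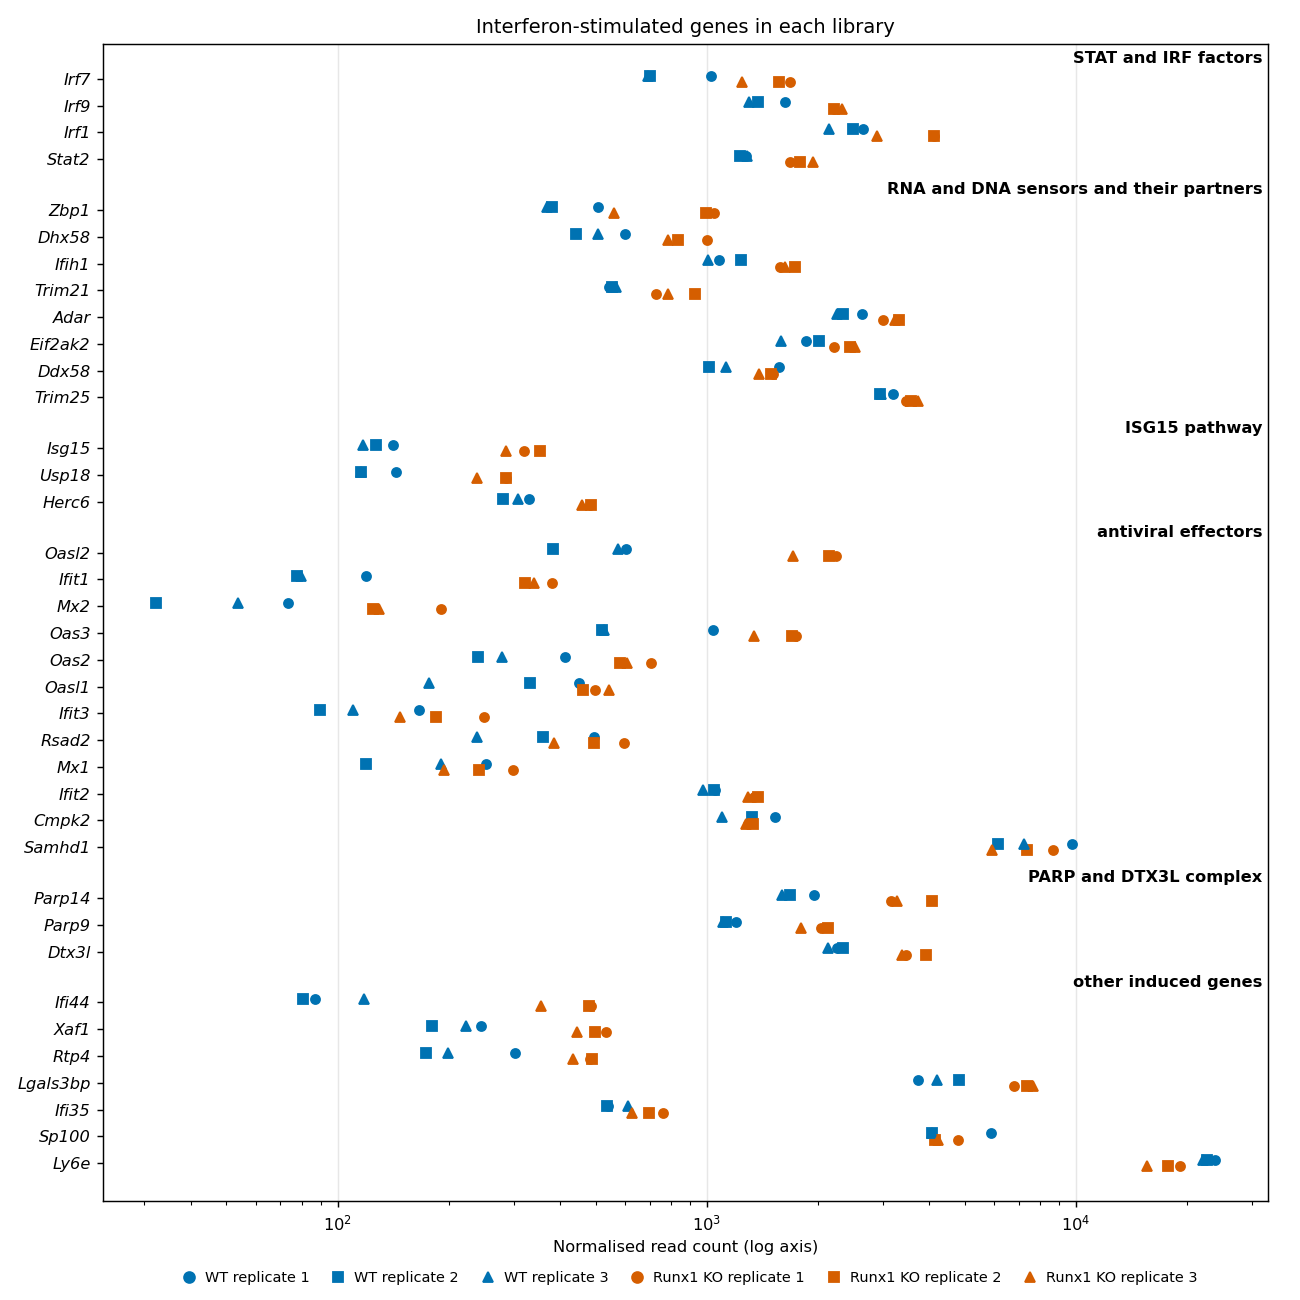
Normalised reads on a log axis in each library for the interferon-stimulated genes arranged by role, with points for the 3 libraries of each label. For Ifi44, Oasl2, Ifit1 and Isg15 the knockout-labelled points lie clear of the WT points, whereas for Samhd1, Sp100, Cmpk2 and Ddx58 they overlap.

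The 12 antiviral effectors were divided: 6 rose and 6 did not pass the test, with a median log2 change of 0.71. Oasl2, an OAS-like protein, had 604.5, 384.5 and 573.6 normalised reads in WT and 2245, 2145 and 1717 under the knockout label. Group means were 521 ± 119 and 2035 ± 281 (SD, n = 3 each), a ratio of 3.91 and a log2 change of 1.98 (SE 0.19, limma adjusted p = 0.00169). Ifit1, which binds viral RNA that lacks a complete cap, had 119.7, 77.7 and 79.6 in WT and 380.8, 322.1 and 341.1 under the knockout label. Group means of Ifit1 were 92.3 ± 23.7 and 348 ± 29.9 (SD, n = 3 each), a ratio of 3.77 and a log2 change of 1.93 (SE 0.19, limma adjusted p = 0.00209). For both genes the lowest knockout-labelled library lay far above the highest WT library.

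Oas2 and Oas3 make the 2′-5′ oligoadenylates that activate RNase L. Oas2 had 412.5, 240.2 and 279.1 normalised reads in WT and 707.1, 581.8 and 608.7 under the knockout label, a log2 change of 1.06 (SE 0.20, limma adjusted p = 0.0128). Oas3 had 1040, 520.7 and 526.6 in WT and 1744, 1704 and 1345 under the knockout label, a log2 change of 1.27 (SE 0.27, limma adjusted p = 0.0186). WT library 1 stood above the other WT libraries for both, and the call for Oas3 was lost in 3 of the 6 fits without a library (highest adjusted p = 0.0716). Mx2, a dynamin-like GTPase, is annotated by GENCODE as a polymorphic pseudogene, so its RNA may not stand for a working protein. Mx2 was weakly expressed, with 73.2, 32.3 and 53.7 in WT and 190.4, 124.9 and 129.3 under the knockout label. Its log2 change was 1.51 (SE 0.32, limma adjusted p = 0.0189). The call for Mx2 was lost without library 2 or 3 labelled Runx1 KO, at up to 0.055. Ifit2, a relative of Ifit1, had 1056, 1044 and 974.6 in WT and 1345, 1376 and 1296 under the knockout label, and its log2 change was smaller, at 0.39 (SE 0.07, limma adjusted p = 0.00901), a call lost without library 2 labelled Runx1 KO (0.0509).

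The 6 effectors that did not pass the test were Ifit3, Oasl1, Rsad2, Mx1, Cmpk2 and Samhd1. Oasl1, which represses translation of Irf7, had 452.1, 333 and 177.5 normalised reads in WT and 497.9, 462.8 and 542 under the knockout label. The labels did not overlap, but the WT libraries were widely spread, and the log2 change of 0.74 (95% interval 0.00 to 1.47) had a limma adjusted p of 0.131. Ifit3, which stabilises Ifit1, had 166.2, 89.8 and 110.3 in WT and 250, 184.3 and 147.2 under the knockout label, a log2 change of 0.68 (95% interval 0.02 to 1.34, limma adjusted p = 0.125). Rsad2, or viperin, which makes a chain-terminating nucleotide, had 495.6, 360.2 and 238.8 in WT and 595.2, 494.5 and 384.9 under the knockout label, a log2 change of 0.47 (95% interval -0.19 to 1.12, limma adjusted p = 0.261). In both genes WT library 1 lay inside the range of the other label. Mx1, a GTPase that blocks orthomyxoviruses, had 252.3, 119.1 and 190.9 in WT and 298.1, 241.8 and 193.9 under the knockout label, a log2 change of 0.43 (95% interval -0.26 to 1.11, limma adjusted p = 0.326). The upper bounds of these 4 intervals, from 1.11 to 1.47, lie above the change estimated for Oas2, so a rise of that size was not excluded by 3 libraries a label.

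Cmpk2, a mitochondrial nucleotide kinase, and Samhd1, a phosphatase that depletes the deoxynucleotides viruses need, had narrower intervals around 0. Cmpk2 had 1527, 1328 and 1102 normalised reads in WT and 1294, 1336 and 1280 under the knockout label, and its log2 change of -0.0046 had a 95% interval of -0.28 to 0.27 (limma adjusted p = 0.981). Samhd1 had 9766, 6156 and 7234 in WT and 8683, 7362 and 5918 under the knockout label, a log2 change of -0.07 with a 95% interval of -0.53 to 0.39 (limma adjusted p = 0.831). For these 2 genes the upper bounds lie below the changes estimated for Oas2, Oas3, Mx2, Ifit1 and Oasl2, although the differences between genes were not tested. The sign of each changed with the scaling and with the library left out, among them WT library 1.

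All 3 genes of the PARP and DTX3L group rose, with a median log2 change of 0.79. Parp9 and Dtx3l encode partners in one complex that modifies histones and enhances responses to interferon, and Parp14 encodes a mono-ADP-ribosyltransferase. Parp9 had 1204, 1129 and 1106 normalised reads in WT and 2037, 2131 and 1797 under the knockout label, a log2 change of 0.79 (SE 0.08, limma adjusted p = 0.00225). Dtx3l had 2256, 2337 and 2131 in WT and 3471, 3935 and 3378 under the knockout label, a log2 change of 0.68 (SE 0.08, limma adjusted p = 0.00275). Parp14 had 1954, 1679 and 1598 in WT and 3164, 4069 and 3279 under the knockout label, a log2 change of 1.00 (SE 0.12, limma adjusted p = 0.0031). The labels did not overlap for any of the 3, although the libraries labelled Runx1 KO were spread for Parp14, and their calls held in all 6 fits without a library.

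Among the 7 other induced genes, 4 rose, 1 fell and 2 did not pass the test, with a median log2 change of 0.78. Ifi44, a protein of poorly known function, changed more than any other member: it had 87.1, 80.7 and 118 normalised reads in WT and 486.4, 480.7 and 356 under the knockout label. Its group means were 95.3 ± 19.9 and 441 ± 73.7 (SD, n = 3 each), a ratio of 4.63 and a log2 change of 2.20 (SE 0.20, limma adjusted p = 0.00142). Xaf1, which antagonises the apoptosis inhibitor XIAP, had 245.3, 180.6 and 222.5 in WT and 534.5, 497.5 and 446.5 under the knockout label, a log2 change of 1.19 (SE 0.14, limma adjusted p = 0.00325). The lowest knockout-labelled library was far above the highest WT library for both. Rtp4, a chaperone of membrane receptors, had 302.7, 173.6 and 199.5 in WT and 483.3, 488.6 and 434.6 under the knockout label, a log2 change of 1.09 (SE 0.20, limma adjusted p = 0.0122), and lost its call without library 2 labelled Runx1 KO. Lgals3bp, a secreted galectin-binding glycoprotein, had 3739, 4813 and 4195 in WT and 6778, 7358 and 7665 under the knockout label, a log2 change of 0.78 (SE 0.10, limma adjusted p = 0.00374).

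Ly6e was the only member that fell. It had 23878, 22620 and 22125 normalised reads in WT and 19196, 17728 and 15547 under the knockout label, with no overlap. The log2 change of Ly6e was -0.39 (SE 0.09, limma adjusted p = 0.0206), and the call was lost in 4 of the 6 fits without a library, at up to 0.0721. Sp100, a protein of nuclear bodies, had 5892, 4076 and 4065 in WT and 4796, 4161 and 4220 under the knockout label, a log2 change of -0.07 (95% interval -0.42 to 0.28, limma adjusted p = 0.761). Ifi35 had 540.2, 536.8 and 612 in WT and 763.6, 697.7 and 626.6 under the knockout label, and its log2 change of 0.30 did not pass (limma adjusted p = 0.0764), although the labels did not overlap.

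Per kilobase of exon, the members spanned a wide range of levels. In WT, Ly6e was highest at 6045 normalised reads per kilobase, followed by Lgals3bp at 1492 and Samhd1 at 844. Mx2 was lowest at 14.7, next to Ifi44 at 15.5. The 3 members with the largest changes were low to intermediate in WT, at 15.5 for Ifi44, 34.8 for Ifit1 and 81.7 for Oasl2, and reached 72, 131 and 319 normalised reads per kilobase under the knockout label. Ly6e remained highest under the knockout label, at 4622, and Mx2 lowest, at 41.0.

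The libraries of a label did not all lie at the same level. Averaged over the 37 genes, log2 values relative to the WT mean were 0.22, -0.13 and -0.10 in WT libraries 1 to 3 and 0.84, 0.79 and 0.63 in the libraries labelled Runx1 KO. The same averages over all genes tested ran from -0.04 to 0.05 in WT and from -0.13 to -0.03 under the knockout label. WT library 1 was the highest WT library for 29 of the 37 genes (36.7% of all genes tested), and library 3 labelled Runx1 KO was the lowest of its label for 23 of the 37 (35.5% of all genes). The median coefficient of variation of a member was 15.2% in WT and 9.85% under the knockout label. Without the libraries numbered 1 of both labels, a setting chosen after the data were seen, 28 members were called higher and 1 lower, and 27 of the calls were shared with the fit on all libraries.

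**Figure D3:**
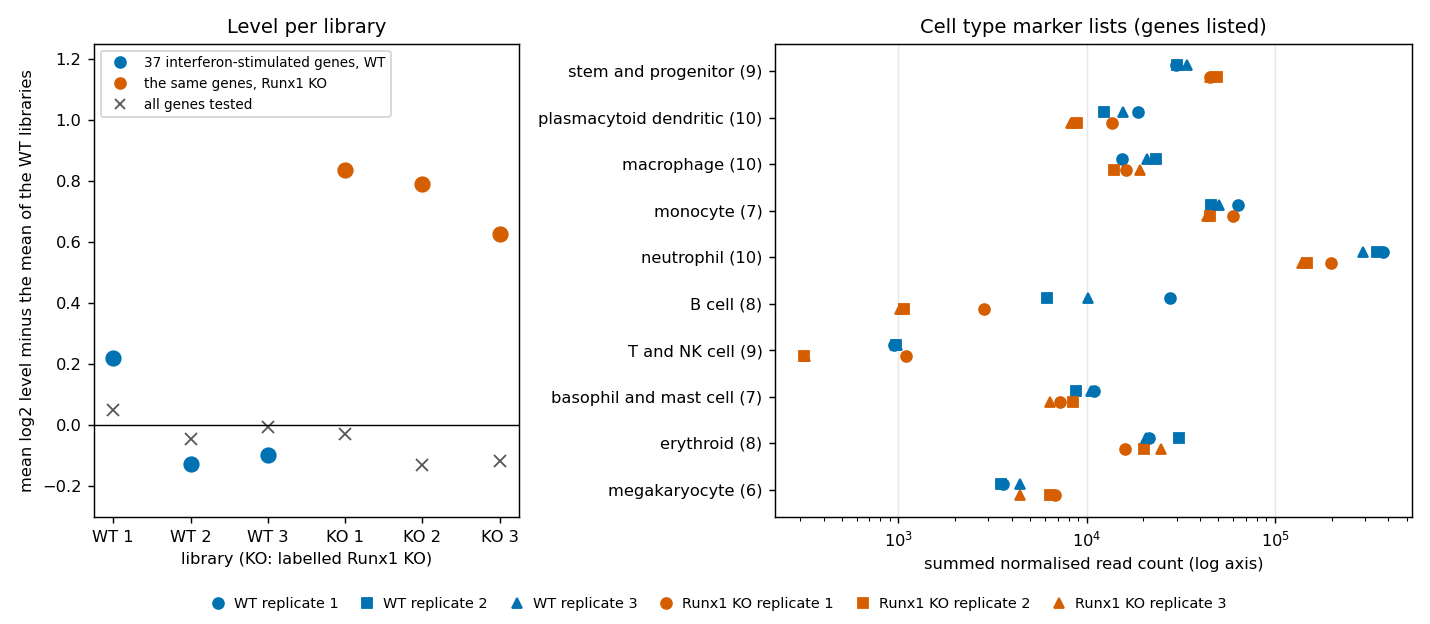
Left, mean log2 level in each library minus the mean of the WT libraries, for the 37 interferon-stimulated genes (circles) and for all genes tested (crosses). Right, summed normalised reads of each cell type marker list per library on a log axis, with the number of genes in brackets. The 3 knockout-labelled circles, from 0.63 to 0.84, lie above the WT circles, of which library 1, at 0.22, is the highest, and the neutrophil and B cell sums are lower under the knockout label.

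Markers of other blood cell types differed between the labels in some lists and overlapped in others. The counts below stand beside 10.6% of all genes tested that passed upwards and 11.3% downwards. Plasmacytoid dendritic cells are a main source of type I interferon. Siglech, a surface receptor that marks them, had 532.2, 397.6 and 562.1 normalised reads in WT and 330.6, 27.7 and 17.9 under the knockout label, and Klk1 had 95, 86.8 and 126.6 in WT and 38.7, 3.96 and 0. Library 1 labelled Runx1 KO thus kept more of these transcripts than libraries 2 and 3 of its label. The summed list of 10 genes ran from 12362 to 18708 in WT and from 8236 to 13658 under the knockout label. Irf8 was the largest part of this sum in every library, with 9428, 6021 and 5426 normalised reads under the knockout label. Tcf4 came next under that label, with 2003, 1730 and 1763. Spib, like the summed B cell markers below, was highest in WT library 1, with 6036, 1507 and 2646.5 normalised reads in WT. Under the knockout label Spib had 195.6, 33.7 and 21.9. In the list of 10 genes 3 fell (Cox6a2, Klk1 and Spib) and none rose, and Siglech did not pass (limma adjusted p = 0.0609). The number that fell was 1 when any of WT libraries 1 to 3 or libraries 2 and 3 labelled Runx1 KO was left out, and 7 without library 1 of that label.

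T and NK cell markers summed to between 948 and 980 normalised reads in WT and to 1092, 315.2 and 318.2 under the knockout label, again with library 1 apart. None of the 9 genes passed the test with all libraries, and 8 fell without library 1 labelled Runx1 KO. B cell markers ran from 6166 to 27674 in WT, highest in library 1, and from 1022 to 2840 under the knockout label. Of the 8 genes, 6 fell, and the number was 3 without WT library 3, 1 without library 2 labelled Runx1 KO and 2 without library 3 of that label. Neutrophil markers ran from 293738 to 376363 in WT and from 138997 to 197514 under the knockout label, and 8 of 10 fell, or 4 without library 2 labelled Runx1 KO. Basophil and mast cell markers ran from 8762 to 10945 and from 6392 to 8427, with 5 of 7 lower and Gata2 higher. Summed macrophage markers ran from 15400 to 23229 and from 13941 to 19199, with 2 of 10 lower (5 without WT library 1 and 1 without WT library 2, WT library 3 or library 3 labelled Runx1 KO). Monocyte markers ran from 45435 to 63239 and from 43722 to 59510, with 1 higher and 2 lower of 7, or 4 lower without library 1 labelled Runx1 KO and 1 without library 2. Erythroid markers ran from 20686 to 30946 in WT and from 15885 to 24798 under the knockout label, with 3 of 8 lower. Megakaryocyte markers ran from 3515 to 4396 and from 4430 to 6764, with 3 of 6 higher and none lower. The number of megakaryocyte markers that rose was 1 to 3 when 1 library was left out. The part of all these markers in the members' changes was not tested.

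Upstream of the members, the interferon genes themselves were barely seen. Of 11 ligand genes, 2 were listed. Ifnb1 had at most 3 reads in a library. Ifng, made by T and NK cells, had 47.5, 17.2 and 13.4 normalised reads in WT and 17.8, 1.98 and 0.99 under the knockout label, and did not pass with all libraries (log2 change -2.28, 95% interval -4.37 to -0.18, limma adjusted p = 0.108). It was called lower without library 1 labelled Runx1 KO, the library that also stood apart in the T and NK cell markers. Ifnb1 was too low to be tested, and interferon protein was not measured.

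Of the 6 receptor genes, 3 rose and 1 fell, beside 10.6% and 11.3% of all genes tested. Ifnar1, a chain of the type I receptor, had 2561, 2342 and 2560 normalised reads in WT and 3681, 3193 and 3235 under the knockout label, a log2 change of 0.44 (SE 0.08, limma adjusted p = 0.00967). Ifnar2, its partner, changed by 0.18 and did not pass (limma adjusted p = 0.0822). Il10rb, which serves the type III and the interleukin 10 receptors, rose by 0.45 (limma adjusted p = 0.00843), and Ifngr1, of the type II receptor, by 0.27 (limma adjusted p = 0.02). The call for Ifngr1 was lost without WT library 1 or library 2 labelled Runx1 KO. Ifnlr1, the chain specific to type III interferon, had 447.2, 238.1 and 214.9 in WT and 143.3, 41.6 and 45.7 under the knockout label, a log2 change of -2.11 (SE 0.51, limma adjusted p = 0.0274), lost in 5 of the 6 fits without a library. Of the receptor kinases, Jak1 and Tyk2, which serve the type I receptor, changed by 0.03 and -0.00 (limma adjusted p = 0.816 and 0.967), and Jak2 rose by 0.22 (limma adjusted p = 0.0286), again lost in 5 of 6.

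Of the 5 IRF factors outside the list, 1 fell and none rose, a share called near that of all genes tested (21.9%). Irf4, a factor of B cells and dendritic cells, had 5487, 703.3 and 1213 normalised reads in WT and 173.7, 34.7 and 52.7 under the knockout label, a log2 change of -4.59 (SE 0.85, limma adjusted p = 0.0117). The other 4, Irf2, Irf3, Irf5 and Irf8, did not pass in limma with all libraries, although Irf5 (0.0122) and Irf8 (0.0173) passed without library 1 labelled Runx1 KO, and Irf5 in DESeq2 (0.0373). Among 12 adaptors, other sensors and their kinases, 3 were called, again near the share of all genes. Mavs rose by 0.43 (limma adjusted p = 0.0299) and Sting1 and Myd88 fell by 0.42 and 0.33 (limma adjusted p = 0.03 and 0.0401); each of these calls was lost in 5 of the 6 fits without a library. Of 7 genes listed here, loosely, as feedback inhibitors, 3 were called (42.9%, beside 21.9% of all genes tested). The phosphatases Ptpn1 and Ptpn6 fell by 0.41 and 0.55 (limma adjusted p = 0.00998 and 0.0083). Irf2bp1 rose by 0.41 (limma adjusted p = 0.0159), a call lost without library 2 or 3 labelled Runx1 KO. Socs1, the inhibitor of JAK kinases that interferon induces, had a log2 change of 0.43 with a 95% interval of -0.47 to 1.32.

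Of 30 further interferon-stimulated genes outside the list, 12 rose (40%), 1 fell (3.33%) and 17 did not pass, with a median log2 change of 0.41. Among all genes tested, 10.6% passed upwards and 11.3% downwards. The number of the 30 that rose was 9 to 13 when 1 library was left out. Nlrc5, the activator of MHC class I genes, had 1400, 1638 and 1285 normalised reads in WT and 3807, 4780 and 3417 under the knockout label, a log2 change of 1.47 (SE 0.14, limma adjusted p = 0.00179). Rnf213, a large ubiquitin ligase, rose by 1.12, Parp12 by 0.97, and Slfn8 by 0.93. Smaller rises, from 0.36 to 0.63, were measured for Parp11, Parp10, Ifi27, Lgals9, Trim30a and Trafd1. The call for Trim30a (limma adjusted p = 0.0484) was lost in 5 of the 6 fits without a library and in edgeR (0.0504), and those for Ifi27 and Trafd1 were each lost in 2. Ifitm1, a membrane protein that blocks virus entry, was the gene that fell, from 1868, 1616 and 1473 normalised reads in WT to 929.9, 1028 and 900 under the knockout label, a log2 change of -0.79 (SE 0.10, limma adjusted p = 0.00386). Over the 64 pathway genes tested outside the list, 18 rose (28.1%) and 7 fell (10.9%, near the share of all genes), with a median of 0.14.

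**Figure D4:**
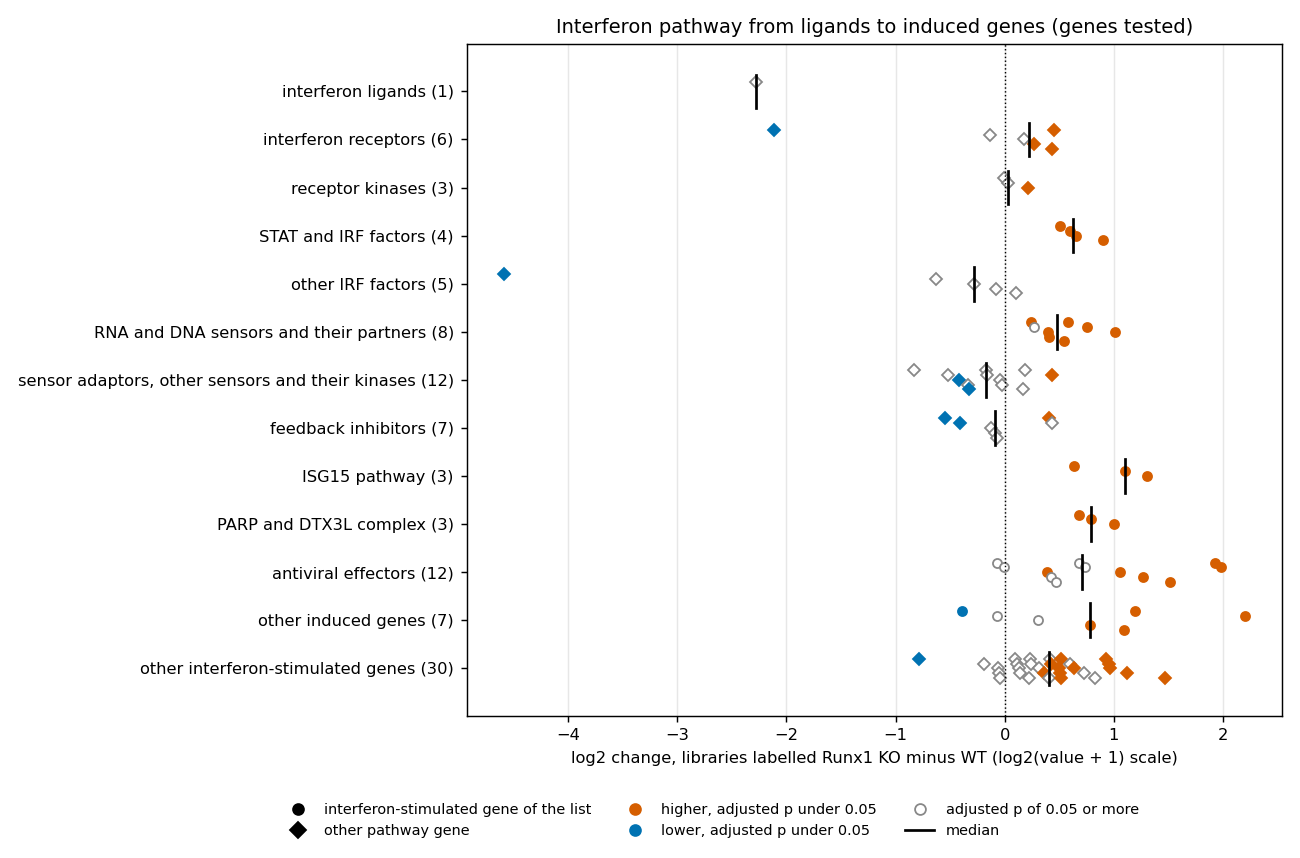
Log2 change (libraries labelled Runx1 KO minus WT) of the interferon pathway genes tested, by step from ligands to induced genes, with circles for the 37 members, diamonds for other genes of the pathway and a bar for each row's median. Median changes are 0.62 for the STAT and IRF factors of the list and 1.10 for the ISG15 pathway, and Irf4, at -4.59, is the point farthest to the left.

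The ISRE core (GAAA, any 2 bases, GAAA), searched on both strands, was in the promoter windows of 10 of the 27 members that have one (37%), beside 3.99% of 27025 genes. A window runs from 250 bases before to 50 after the start. The 10 were Ddx58, Eif2ak2, Ifih1, Ifit1, Ifit3, Isg15, Oas3, Rsad2, Stat2 and Trim21. Of these, 7 rose, with a median log2 change of 0.56, and of the 17 members with no match 12 rose, with a median of 0.64. Of the 10 members that have no window, 8 rose and 1 fell, with a median of 1.01. The search took exact letters inside the window only, so a member with no match may still hold a response element. Whether the element bears on the changes was not tested. So among the sequences printed above, those of Isg15 and Ifit1 belong to genes that rose strongly, and those of Ifit3 and Rsad2 to genes that did not pass the test. The GAS letters TTCNNNGAA were in 6 windows (22.2%, beside 9.55% of all genes). The RUNX-binding letters TGTGGT were in 5 (18.5%, beside 18.9%) and TGCGGT in 4 (14.8%, beside 7.34%).

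Several members lie close to each other in the genome. Oas2 and Oas3, 3.24 kb apart on chromosome 5, both rose, as did Parp14, Dtx3l and Parp9 on chromosome 16. For 4 other pairs of nearby members the ratio was compared between labels, and none of the ratios passed a test. On chromosome 19, Ifit2, Ifit3 and Ifit1 lie in that order, with 7.11 kb between Ifit2 and Ifit3. Between Ifit3 and Ifit1 are 52.1 kb, which hold Ifit3b, a gene outside the list. Normalised reads of Ifit1 divided by those of Ifit3 ran from 0.720 to 0.865 in WT and from 1.52 to 2.32 under the knockout label. On chromosome 16, Mx1 and Mx2 are 72.4 kb apart, and the ratio of Mx2 to Mx1 ran from 0.271 to 0.290 in WT and from 0.516 to 0.667 under the knockout label. Neither ratio overlapped between labels, and each had an exact permutation p of 0.1, two-sided, the smallest that 3 against 3 libraries allow (0.25 after Benjamini-Hochberg adjustment over 5 pairs, chosen after their values were seen). Oasl2 over Oasl1, 11 kb apart on chromosome 5, ran from 1.15 to 3.23 and from 3.17 to 4.63. The ratio of Rsad2 to Cmpk2, neighbours at 12.8 kb on chromosome 12, ran from 0.217 to 0.325 and from 0.301 to 0.460. Both of those overlapped.

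Some members share sequence with other genes, so the authors' counting could have split or dropped their reads. Ifit3 matched Ifit3b at 97.8% identity over 97.4% of its transcript, which makes the Ifit3 value uncertain. Mx1 and Mx2 matched each other at 94.8% identity over 27.2% and 38.1% of their transcripts, Isg15 matched AC151275.1 at 95.2% over 63.8%, and Ifit1 matched Ifit1bl2 at 84.5% over 29.8%. Exons of Parp9 and Dtx3l overlap on opposite strands over 458 bases, and 16.8% of the exon bases of Adar overlap Chrnb2 on the other strand. The largest overlaps on the same strand were 13.9% of the exon bases of Rtp4, with Gm45338, and 13.7% of those of Herc6, with Gm45193. Strand cannot separate the reads of such overlaps. The library kit marks strand, but whether counting used it is not given in the sources used here.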

How the data were processed

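Per the labels' protocols, poly-A RNA from c-Kit+ cells was made into stranded libraries and sequenced on a HiSeq2500; the submitters' processing notes name HISAT2, HTSeq 0.9.1 and the mm10 (GRCm38) build. The deposited values are a signal: in every file 100% of values were whole multiples of 1 step (tolerance 0.001), so they are read counts divided by a size factor by the authors. Genes with fewer than 10 reads in total are not listed. limma 3.58.1 (R 4.3.3; lmFit, eBayes with trend, two-sided) was fitted to log2(value + 1) with the group as the only term, over 15410 genes that passed filterByExpr (minimum count 10, minimum total 15), with Benjamini-Hochberg adjustment and a threshold of 0.05. This scale understates changes of weakly expressed genes. edgeR 4.0.16 and DESeq2 1.42.0 on recovered reads, other scalings, filters and pseudocounts, and leaving out libraries were alternatives, and the fit was tested on simulated data. Members and lists were chosen with earlier results of these data known. Values in every library are given for the members that passed the threshold and for the largest change of each role group; others were added after their values were seen. Beyond the counts of each list, pathway genes are named where they passed or define a list (Irf2, Irf3, Irf5, Irf8 and Ifngr2 were added after their values were seen), and 1 further gene was left out of the counts and is not reported here. Chromosome positions and exon lengths are from GENCODE release M21. PCR copies cannot be told from separate molecules here, so the floor covers counting error only.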

Additional observations from a re-analysis of the deposited data

How the results depend on the processing

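With all 6 libraries, every alternative (pseudocount 0.5 or 5, no filter, a mean CPM of at least 1, TMM, library totals, edgeR with either scaling, DESeq2, and the replicate block) called between 28 and 30 of the 37 genes, with a median log2 change from 0.642 to 0.758. Leaving out 1 library each gave 17 to 28 members called, 17 to 28 of them higher and 0 to 1 lower, a median of 0.627 to 0.722, and 1349 to 3551 of all genes called, with the fewest members (17) left without library 2 labelled Runx1 KO. Of all genes, 1349 were called without that library, 1743 without library 3 of the same label and 2140 without WT library 2, beside 3370 with all libraries. Library totals added Ifi35 (limma adjusted p = 0.047). Direction changed for 3 genes that never passed the test. Cmpk2 had a log2 change of 0.0046 with TMM, 0.078 with library totals, 0.11 without the libraries numbered 1 of both labels (chosen after seeing the data) and -0.13 to 0.11 when 1 library was left out. Samhd1 had 0.015 with library totals and -0.22 to 0.12 when 1 library was left out. Sp100 had 0.011 with library totals, 0.042 without the libraries numbered 1 and -0.16 to 0.11 when 1 library was left out. The cause was not tested.

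After each label's mean was subtracted from every gene, same-numbered libraries correlated at 0.287, 0.129 and -0.0104. WT library 2 correlated best with library 3 labelled Runx1 KO (0.235). With 3 libraries a label these correlations are tied to each other, so they cannot show whether the numbers pair the libraries. With the replicate number as a block, 30 members were called, 29 higher and 1 lower, with Ifit3 (limma adjusted p = 0.042) and Rsad2 (0.0377) added, and 3843 of all genes. Depth limits Mx2 most among the members, with 32.3 normalised reads in its lowest library.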

Other observations

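The receptor genes Ifnar2, Il10rb, Ifnar1 and Ifngr2 lie in a row on chromosome 16, between 1.04 and 1.2 Mb from Runx1. Il10rb and Ifnar1 rose, whereas Ifnar2 (log2 change 0.18, limma adjusted p = 0.0822) and Ifngr2 (-0.14, limma adjusted p = 0.374) did not pass the test. Ifngr2 had 1677, 1470 and 1532 normalised reads in WT and 1632, 1319 and 1325 under the knockout label. Whether distance to Runx1 bears on these values was not tested.

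Ifih1 and Ddx58, sensors of the same family, were compared as a ratio of normalised reads, which ran from 0.687 to 1.23 in WT and from 1.05 to 1.18 under the knockout label (exact permutation p = 0.4, two-sided). Ifit3b, the near copy of Ifit3, had 50.5, 19.2 and 24.0 normalised reads in WT and 75.3, 41.6 and 34.8 under the knockout label, and did not pass the test (limma adjusted p = 0.268).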
